A study of Mus musculus with 20 samples.

Results

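The genes described here are the folding and degradation machinery of the endoplasmic reticulum (ER), 40 of the 20914 genes in the deposited count table. They were taken from a list of gene symbols, not by a rule on their measured values. The list was chosen with earlier results of these data known. All 40 were in the table and passed the filter on low counts. By role, 8 are chaperones and their cochaperones, 11 are lectin chaperones and disulfide enzymes, and 11 belong to ER-associated degradation. A further 4 are grouped as stress sensors, with the transcription factor Xbp1 counted among them, and 6 are translocon subunits. RNA of the left lateral lobe of the liver was sequenced in 20 male mice of the LiB12cKO strain aged 8 weeks. The 10 knockout mice (KO) had the genotype HSD17B12lox/lox;Alb-CreCre/WT and the 10 wild-type mice (WT) had the genotype HSD17B12lox/lox;Alb-CreWT/WT. Both groups thus carried the floxed Hsd17b12 gene, and the KO group also carried Cre recombinase, driven in hepatocytes by the albumin promoter. No WT mouse carried Cre, so effects of Cre and of the loss of the gene cannot be told apart. Hsd17b12 encodes a reductase that takes part in lengthening fatty acids to very long chains.

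Proteins bound for secretion enter the ER through the SEC61 translocon, are held by BiP and its cochaperones, pass through the calnexin and calreticulin cycle, and gain disulfide bonds from disulfide isomerases that the ERO1 oxidases recharge. Proteins that do not fold are sent back to the cytosol through the HRD1 complex and extracted by the ATPase p97 for destruction. The sensors IRE1, PERK and ATF6 match this capacity to the load through the unfolded protein response, and hepatocytes, which make most plasma proteins, hold a large amount of the machinery.

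The labels were checked on the targeted gene. Hsd17b12 (Entrez gene 56348; mm10 chromosome 2, 94032697 to 94157909) spanned 44.2 to 51.3 CPM (fragment counts scaled to a common library total) in KO and 123 to 177 CPM in WT, with no overlap. Its log2 fold change was -1.66 (SE 0.0644). Between 16693195 and 29124124 fragments per mouse were assigned to genes, and KO and WT differed in composition: the TMM scaling factors, which bring the bulk of genes to a common level, had a mean ± SD of 1.18 ± 0.0579 over the 10 KO mice and 0.851 ± 0.0600 over the 10 WT mice. Over the 13670 tested genes the median log2 fold change was -0.025 with TMM and 0.44 with library size alone, a shift of 0.47. Values below are TMM-scaled, statements on overlap of the groups included, and the library size value is given for genes whose direction this choice changes. Genes are called lower or higher at an adjusted p under 0.05 from the edgeR quasi-likelihood test with Benjamini-Hochberg adjustment over all tested genes. Mouse KO_391 had the highest KO value for 14 of the 40 genes and KO_416 for 11, and leaving out KO_391 kept the counts of calls at 6 higher and 26 lower. The hepatocyte markers fell, 8 of 8, against 31% of all tested genes (5 of 8 with library size scaling, against 6.71%). Summed, they held 46435 to 61520 CPM in KO and 76033 to 110790 CPM in WT. Most of this was Alb, with a mean of 35508 CPM in KO and 59429 CPM in WT. Of the Kupffer cell markers 6 of 8 and of the lipid-associated macrophage markers 8 of 8 rose, against 28.2% of all tested genes. With library size 7 of 8 Kupffer cell and 8 of 8 lipid-associated macrophage markers were higher, against 68.4%. Their summed levels went from 123 to 257 CPM in WT to 245 to 494 CPM in KO for the first list, and from 88.1 to 189 CPM to 208 to 512 CPM for the second. No marker of these 3 lists was at 0 in all mice. Their part in the results below was not tested. In bulk liver, fewer cells of a type and less RNA per cell cannot be told apart.

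Most of the machinery was lower in KO liver, and a few members were higher. Of the 40 genes, 26 were lower and 6 higher in KO, against 31% and 28.2% of all tested genes, and 8 did not pass the test. The median log2 fold change was -0.34, against -0.025 over all tested genes. All KO values lay below all WT values for 7 genes and above them for 1, against 6.47% and 7.1% of all tested genes. With library size scaling 11 were lower and 19 higher, against 6.71% and 68.4% of all tested genes, and the median was 0.14 against 0.44. The separation of the groups turned as well: with library size all 40 genes either overlapped or, in 7 cases, had all KO values above all WT values, against 1.03% of all tested genes below and 24.9% above. Thus the 7 genes separated downward with TMM (Hsp90b1, Pdia6, Derl3, Os9, Derl2, Ssr4 and Ssr2) overlapped with library size, while Vcp was separated upward under both.

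Both scalings called 11 genes lower: Hsp90b1, Sdf2l1, Dnajb11, Calr, Pdia3, Pdia6, Ero1lb, Creld2, Herpud1, Derl3 and Ssr4. Both called 6 higher: Dnajb9, Ero1l, Dnajc10, Vcp, Atf6 and Eif2ak3. A further 7 were lower with TMM and kept their sign without passing the test with library size, namely Hyou1, Manf, Dnajc3, Pdia5, Syvn1, Os9 and Xbp1. Hspa5, Pdia4 and Sec61b were lower with TMM and had the opposite sign, not called, with library size. Canx, Derl2, Sel1l, Edem2 and Ssr2 were lower with TMM and higher with library size. P4hb, Derl1, Edem1, Selenos, Ern1, Sec61a1, Ssr1 and Ssr3 were not called with TMM, and all 8 were higher with library size (log2 fold changes 0.32 to 0.51). Measured against the median of all tested genes, 32 of the 40 lay below it under each scaling, with a median distance of -0.31 with TMM and -0.30 with library size (log2).

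**Figure D1:**
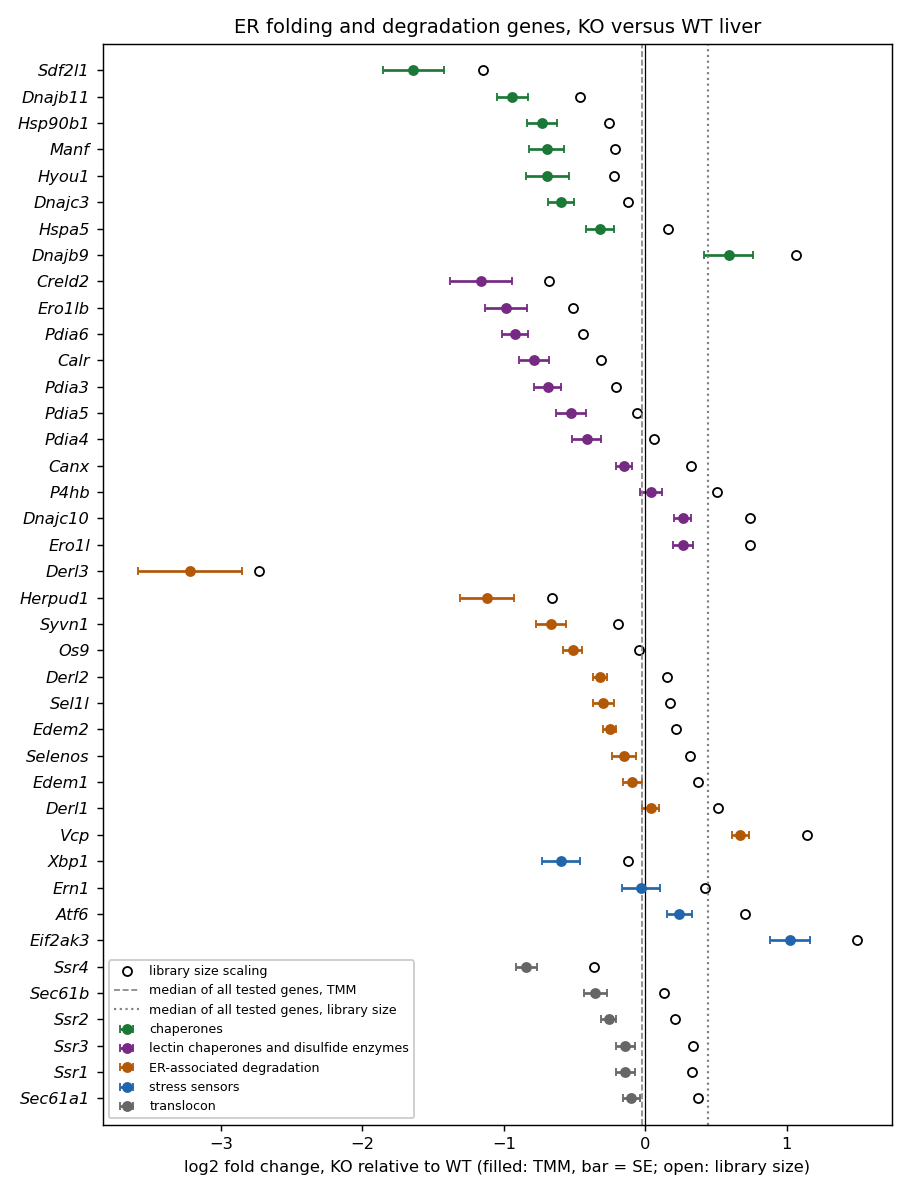
Log2 fold change, KO over WT (x axis) for the 40 genes, grouped by role and coloured as in the key; filled points with bars are TMM-scaled estimates with their SE, open circles are library size estimates, and the dashed and dotted lines are the medians of all tested genes under each scaling. Derl3 lies farthest to the left at -3.22 and Eif2ak3 farthest to the right at 1.02, and every open circle lies to the right of its filled point.

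Several promoters of this machinery carry the ER stress response element (ERSE), a CCAAT box and a CCACG box with 9 bases between them, known as a site for NF-Y and ATF6. Of the 40 genes, 34 have a promoter in RefSeq (GRCm38.p6, the mm10 build), and the 250 bases before the start were searched on both strands for CCAAT, any 9 bases and CCACG. It was found for 10 of 34 members (29.4%) and for 35 of 27025 genes (0.130%). The shorter ERSE-II, which is ATTGG, any base and CCACG and shares the CCACG box, was found for Herpud1 and for 10 genes in all (0.0370%). The unfolded protein response element TGACGTGG, known as a site for spliced XBP1, was found for Vcp and for 163 genes in all (0.603%). The element was defined on genes of this family, so its share among them is no independent finding. The windows below belong to members on which the results turn, with Canx as a member that carries the element and changed little; capitals mark the matched motif on the strand of the gene.
Hspa5 promoter, chr2:34772015-34772053, plus strand: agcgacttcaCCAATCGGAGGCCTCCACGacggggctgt
Hsp90b1 promoter with 2 matches, chr10:86705523-86705666, minus strand: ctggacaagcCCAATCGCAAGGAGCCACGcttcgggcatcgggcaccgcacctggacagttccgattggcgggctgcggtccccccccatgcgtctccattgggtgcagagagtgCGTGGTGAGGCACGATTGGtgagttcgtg
Calr promoter, chr8:84847065-84847103, minus strand: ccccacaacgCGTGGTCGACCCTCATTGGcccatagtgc
Canx promoter, chr11:50325790-50325828, minus strand: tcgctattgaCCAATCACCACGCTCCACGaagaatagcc
Pdia6 promoter, chr12:17266481-17266519, plus strand: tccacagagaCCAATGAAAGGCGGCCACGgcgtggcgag
Ero1lb promoter, chr13:12565672-12565710, plus strand: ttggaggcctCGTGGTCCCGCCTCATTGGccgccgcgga
Creld2 promoter, chr15:88819510-88819548, plus strand: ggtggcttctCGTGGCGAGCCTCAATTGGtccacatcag
Derl3 promoter, chr10:75893232-75893270, plus strand: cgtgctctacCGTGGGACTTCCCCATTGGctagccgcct
Herpud1 promoter (ERSE-II), chr8:94386367-94386397, plus strand: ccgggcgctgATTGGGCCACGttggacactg
Vcp promoter (unfolded protein response element), chr4:43000604-43000631, minus strand: tgcggccaatTGACGTGGcgttactagg
A window that reads CGTGG first holds the element on the opposite strand, as in Calr, Ero1lb, Creld2, Derl3 and the second match of Hsp90b1.

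All 10 members with an ERSE match were lower in KO, with a median log2 fold change of -0.76; besides those printed they are Dnajc3 and Syvn1. Of the 24 members with a promoter entry and no ERSE match, Herpud1 and Vcp among them, 13 were lower and 5 higher, with a median of -0.27. Of all tested genes 31% were lower and 28.2% higher. With library size scaling 6 of the 10 were lower and 1, Canx, was higher. Of the 24 others 5 were then lower and 14 higher, against 6.71% and 68.4% of all tested genes. Outside the machinery, of the 25 other genes with a match 9 were tested, of which 2 were lower and 3 higher, with a median of 0.11. The difference between these sets was not tested. A match describes letters in a window and shows no binding.

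Over all tested genes 31% were lower and 28.2% higher with TMM, and 6.71% and 68.4% with library size. Among the chaperones, 7 of 8 were lower and 1 was higher, with a median log2 fold change of -0.69 (3 lower and 1 higher with library size). Apart from Dnajb9, each of these partners of BiP had a lower log2 fold change than BiP itself. Sdf2l1, a BiP-associated protein of the lumen (mm10 chromosome 16, 17130138 to 17132383), had a lowest, median and highest level of 9.21, 15.2 and 21.8 CPM in KO and 19.7, 47.0 and 76.3 CPM in WT. Only the top of the KO range reached the bottom of the WT range. Its log2 fold change was -1.64 (SE 0.213; edgeR adjusted p = 1.72e-06), from 47.2 ± 18.0 CPM in WT to 15.2 ± 3.86 CPM in KO (SD, n = 10 each).

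Dnajb11, the cochaperone ERdj3 (chromosome 16, 22857845 to 22879634), measured 39.4, 54.0 and 67.2 CPM in KO and 64.2, 100.5 and 131 CPM in WT. The groups overlapped at one end, and the log2 fold change was -0.94 (SE 0.112; edgeR adjusted p = 3.69e-07). Hsp90b1, the Hsp90 of the lumen known as Grp94 (chromosome 10, 86690841 to 86705444), measured 398, 499 and 557 CPM in KO and 600.2, 764 and 1165 CPM in WT. Every KO mouse lay below every WT mouse, with a log2 fold change of -0.73 (SE 0.104; edgeR adjusted p = 3.63e-06), which was -0.25 with library size. Dnajc3, the cochaperone p58IPK, measured 135, 169 and 207 CPM in KO and 174, 264 and 304 CPM in WT. Its groups overlapped, and its log2 fold change of -0.60 (SE 0.0928; edgeR adjusted p = 1.08e-05) became -0.12 with library size, not called (adjusted p = 0.178).

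Hspa5, which encodes BiP (chromosome 2, 34772090 to 34776529), measured 390, 451 and 514 CPM in KO and 428, 553 and 745 CPM in WT. The KO mice sat in the lower part of the WT range or, for KO_402 and KO_414, below it. They varied less, with 456 ± 41.8 CPM in KO against 569 ± 111 CPM in WT (SD, n = 10 each). The log2 fold change was -0.32 (SE 0.0968; edgeR adjusted p = 0.00714) and 0.16 with library size (adjusted p = 0.122), so its direction rests on the scaling. Manf, a small BiP-binding protein, and Hyou1, a nucleotide exchange factor of BiP, were lower by log2 fold changes of -0.70 and -0.69. Dnajb9, the cochaperone ERdj4, was the 1 chaperone that was higher, by 0.59 (edgeR adjusted p = 0.0061) and by 1.07 with library size. Its KO values of 45.7, 53.3 and 68.1 CPM lay above 9 of 10 WT mice, whose median was 32.0 CPM, and mouse WT_427 reached 83.3 CPM.

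**Figure D2:**
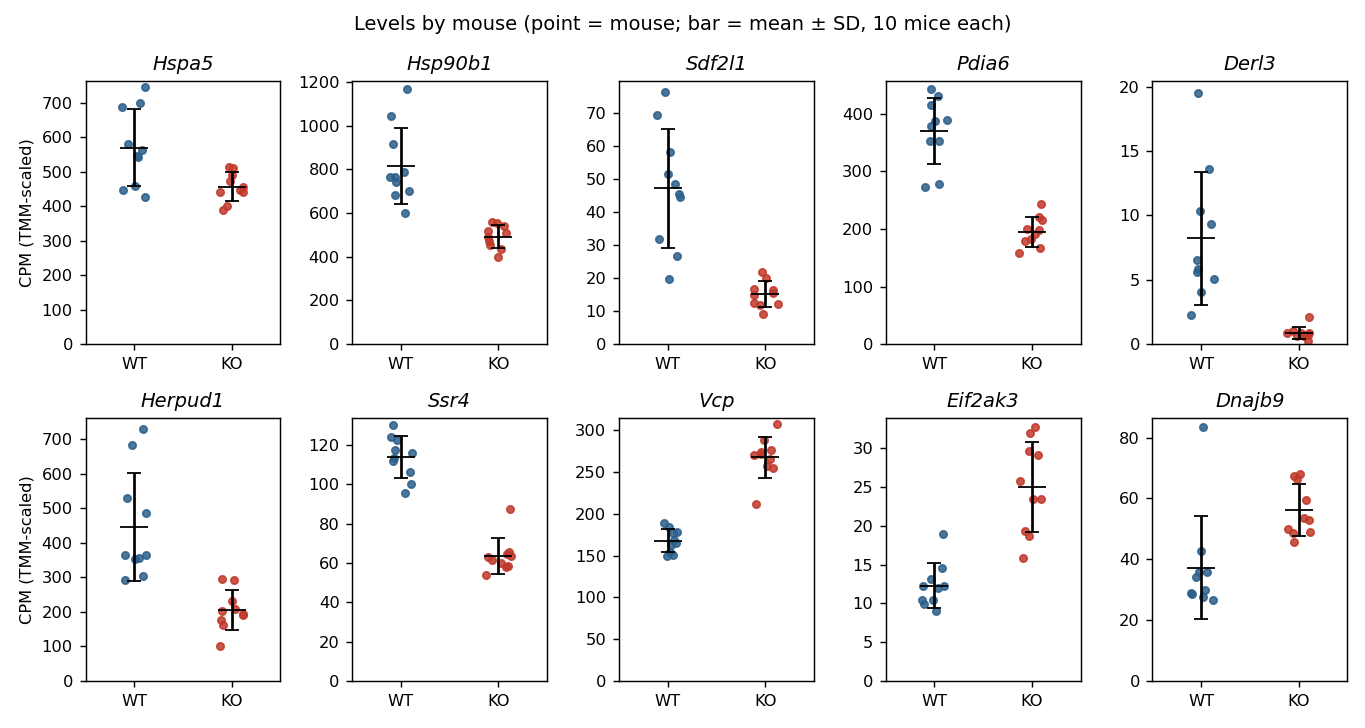
TMM-scaled CPM (y axis, from 0) of 10 genes in WT and KO liver; each point is a mouse and the bars are the mean ± SD of 10 mice. Hsp90b1, Pdia6, Derl3 and Ssr4 show every KO mouse below every WT mouse, Vcp shows the reverse, and in Dnajb9 1 WT mouse stands at 83.3 CPM above all others.

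The lectin chaperones and disulfide enzymes split between close relatives. Of 11 genes, 8 were lower, 2 higher and 1 not called, against 31% lower and 28.2% higher of all tested genes, with a median log2 fold change of -0.52. With library size 5 were lower and 4 higher, against 6.71% and 68.4% of all tested genes. Pdia6, the disulfide isomerase P5 (chromosome 12, 17266595 to 17284770), measured 158, 195 and 243 CPM in KO and 274, 383 and 443 CPM in WT. No KO mouse reached the WT range, and the log2 fold change was -0.92 (SE 0.0938; edgeR adjusted p = 3.43e-08; -0.44 with library size). Its exons overlap those of Atp6v1c2 on the opposite strand, and strand use in counting is not given, so fragments of the 2 genes cannot be told apart there. Exons of Pdia4 and P4hb overlap Mir704 and Gm20014, and those of Calr, Ero1l, Derl1, Edem1, Selenos, Vcp and Ssr1 overlap genes without a symbol.

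Calr, the soluble lectin chaperone calreticulin (chromosome 8, 84842088 to 84846931), measured 276, 362 and 444 CPM in KO and 439, 582 and 800 CPM in WT. The 2 ranges met at their ends, and the log2 fold change was -0.79 (SE 0.107; edgeR adjusted p = 1.86e-06). Canx, the membrane-bound lectin chaperone calnexin, had a log2 fold change of -0.15 (edgeR adjusted p = 0.021), which was 0.32 with library size. That call was lost when KO_404, KO_425, KO_434 or KO_453 was left out (adjusted p 0.0653 to 0.0799). Pdia3, the isomerase ERp57 that works with both lectins, measured 265, 336 and 388.7 CPM in KO and 366, 553 and 667 CPM in WT. It was lower by a log2 fold change of -0.69 (SE 0.094; edgeR adjusted p = 1.91e-06).

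Ero1lb, the oxidase ERO1-beta (chromosome 13, 12565883 to 12609528), measured 25.2, 33.9 and 58.7 CPM in KO and 46.2, 72.0 and 98.9 CPM in WT. The highest KO value was that of KO_391, and the log2 fold change was -0.98 (SE 0.151; edgeR adjusted p = 1.15e-05). Ero1l, the paralog ERO1-alpha, went the other way, from 17.9 ± 2.16 CPM in WT to 21.6 ± 2.28 CPM in KO (SD, n = 10 each; log2 fold change 0.27). Dnajc10, the disulfide reductase ERdj5, was higher by the same 0.27 on the log2 scale. Creld2, an ER protein with EGF-like domains, was lower by -1.16, Pdia5 by -0.52 and Pdia4 by -0.41 (0.06 with library size). P4hb, the founding disulfide isomerase PDI, had a log2 fold change of 0.04 (edgeR adjusted p = 0.684) with TMM and 0.51 with library size.

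In ER-associated degradation 7 of 11 genes were lower, 1 was higher and 3 were not called, with a median log2 fold change of -0.29. Of all tested genes 31% were lower and 28.2% higher. With library size 2 were lower and 7 higher, against 6.71% and 68.4% of all tested genes. Derl3 fell farthest of the 40. This derlin, a membrane protein of the retrotranslocation complex (chromosome 10, 75893398 to 75895941), measured 0.230, 0.788 and 2.14 CPM in KO and 2.29, 6.18 and 19.5 CPM in WT. All KO mice lay below all WT mice, at 10.6% of the WT mean, with a log2 fold change of -3.22 (SE 0.365; edgeR adjusted p = 2.44e-07; -2.73 with library size). Its level in KO was near the floor of the tested range, and on log2 RPKM with a pseudocount of 1 the fold change shrank to -1.97. Derl2, a derlin with a much higher level (chromosome 11, 71007445 to 71019263), measured 76.0, 89.0 and 97.4 CPM in KO and 97.5, 110.5 and 121 CPM in WT. It changed little beside Derl3, with a log2 fold change of -0.32 (SE 0.0498; edgeR adjusted p = 1.02e-05) and no overlap, and was higher by 0.15 with library size. Derl1, the third derlin, was at 0.04 (edgeR adjusted p = 0.585; 0.51 with library size).

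Herpud1, the membrane scaffold of the HRD1 complex, measured 102, 198 and 296 CPM in KO and 292, 365 and 731 CPM in WT (log2 fold change -1.12, edgeR adjusted p = 4.54e-05). Os9, the lectin that delivers trimmed glycoproteins to SEL1L (chromosome 10, 127094259 to 127121160), measured 185, 209.9 and 251 CPM in KO and 262, 313 and 350.4 CPM in WT. No Os9 value overlapped, and its log2 fold change of -0.51 (SE 0.0688; edgeR adjusted p = 1.56e-06) was -0.04 with library size (adjusted p = 0.606). Syvn1, the ubiquitin ligase HRD1, was lower by -0.67, with exons that overlap Mrpl49 on the opposite strand. Sel1l, its adaptor, was lower by -0.29 and Edem2, a mannosidase-like lectin, by -0.25, and both were higher with library size. Edem1, its relative, was at -0.09 (adjusted p = 0.24) and Selenos, a selenoprotein that recruits VCP, at -0.15 (adjusted p = 0.125), both by edgeR and neither called, and at 0.37 and 0.32 with library size.

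Vcp was higher in KO, without overlap of the groups. It encodes p97, the ATPase that pulls substrates out of the membrane (chromosome 4, 42979964 to 43000507), and measured 212, 271 and 307 CPM in KO and 149.5, 167 and 189 CPM in WT. The lowest KO value was that of KO_416. The log2 fold change was 0.67 (SE 0.0621; edgeR adjusted p = 8.18e-09) and 1.15 with library size.

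The 4 genes grouped as sensors differed in direction. Xbp1, the 1 that was lower, is a target of the sensor IRE1 and not a sensor itself. Eif2ak3, the kinase PERK (chromosome 6, 70844527 to 70905240), measured 15.8, 24.7 and 32.8 CPM in KO and 9.05, 12.1 and 19.0 CPM in WT. The KO and WT ranges overlapped, and the log2 fold change was 1.02 (SE 0.14; edgeR adjusted p = 2.34e-06; 1.495 with library size), the largest rise of the 40 under TMM. Atf6, a transcription factor held in the ER membrane (chromosome 1, 170704457 to 170867771), measured 66.0, 73.7 and 78.7 CPM in KO and 46.0, 60.4 and 81.4 CPM in WT. All KO values of Atf6 lay within the WT range, with a log2 fold change of 0.24 (SE 0.0876; edgeR adjusted p = 0.0213).

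Xbp1, whose RNA is spliced by IRE1 into the form that encodes the active factor (chromosome 11, 5520967 to 5525872), measured 125, 156 and 209.8 CPM in KO and 166, 236 and 386 CPM in WT. Its ranges overlapped, and the log2 fold change was -0.60 (SE 0.133; edgeR adjusted p = 5.9e-04) and -0.12 with library size (adjusted p = 0.391). Gene counts do not separate spliced from unspliced Xbp1. Ern1, which encodes IRE1-alpha (chromosome 11, 106397620 to 106487796), measured 26.9, 32.1 and 54.4 CPM in KO and 22.0, 35.2 and 45.2 CPM in WT. Its log2 fold change was -0.03 (SE 0.135; edgeR adjusted p = 0.865) with TMM and 0.42 with library size (adjusted p = 0.0104). Ddit3, the factor CHOP downstream of PERK and no member of the 40, measured 3.77, 11.6 and 25.1 CPM in KO and 4.38, 5.66 and 9.48 CPM in WT. It was higher by a log2 fold change of 1.03 (SE 0.245; edgeR adjusted p = 0.00123), with a wide KO spread that covered the whole WT range.

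Of the 6 translocon genes, 3 were lower and 3 not called, against 31% lower of all tested genes, with a median log2 fold change of -0.20. With library size 1 was lower and 4 higher, against 6.71% and 68.4% of all tested genes. Ssr4, the delta subunit of the TRAP complex beside the channel (chromosome X, 73787028 to 73790828), measured 53.8, 62.1 and 87.5 CPM in KO and 95.7, 115 and 130.2 CPM in WT. It was separate in all mice, with a log2 fold change of -0.84 (SE 0.0744; edgeR adjusted p = 4.3e-09; -0.36 with library size). The other TRAP subunits changed less. Ssr2 (TRAP-beta) measured 54.6, 63.6 and 70.4 CPM in KO and 71.4, 75.1 and 81.1 CPM in WT, for a log2 fold change of -0.26 (SE 0.0501; edgeR adjusted p = 1.35e-04; 0.21 with library size). Ssr1 (TRAP-alpha) measured 44.6, 55.7 and 62.4 CPM in KO and 52.3, 60.2 and 69.6 CPM in WT, for -0.14 (SE 0.0648; edgeR adjusted p = 0.0679; 0.33 with library size). Ssr3 (TRAP-gamma) was also at -0.14 (edgeR adjusted p = 0.0714; 0.34 with library size). Of the channel itself, Sec61b measured 27.5, 29.3 and 39.4 CPM in KO and 30.4, 38.6 and 47.6 CPM in WT, for -0.35 (SE 0.0815; edgeR adjusted p = 8.28e-04; 0.13 with library size). Sec61a1, the pore-forming subunit, was at -0.10 (edgeR adjusted p = 0.18; 0.37 with library size).

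**Figure D3:**
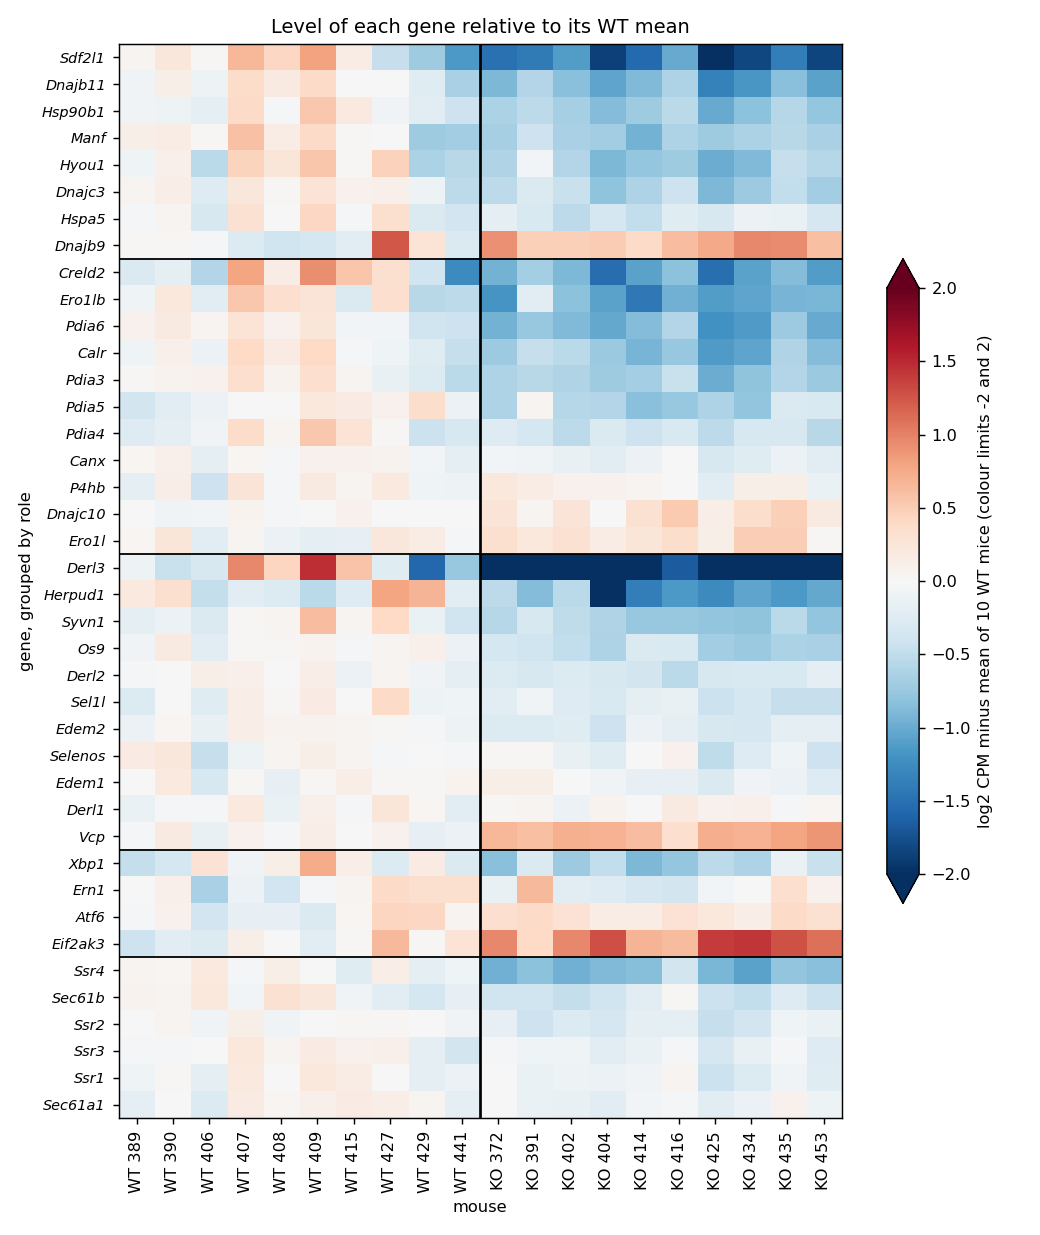
Log2 CPM of each gene in each mouse minus the mean of the 10 WT mice (colour, blue lower and red higher, with limits of -2 and 2), with genes in rows grouped by role and mice in columns. Derl3 and Sdf2l1 are the darkest blue across the KO mice, and Eif2ak3, Vcp and Dnajb9 are red there.

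Mice differed in the level of several members at once. Of the 11 genes that were lower under both scalings, WT_407 was among the 2 highest WT mice for 9 and WT_409 for 8, and WT_429 and WT_441 were among the 2 lowest for 9 each. In KO, KO_416 was among the 2 highest for 8 and KO_391 for 7, and KO_425 among the 2 lowest for 8. The median SD of log2 CPM over the 40 genes was 0.16 in KO and 0.24 in WT, against 0.22 and 0.24 over all tested genes. Within WT mice the log2 CPM of Hspa5 was correlated with that of Hsp90b1 (Pearson r = 0.81, permutation adjusted p = 0.0394; Spearman rho = 0.81, adjusted p = 0.0341; n = 10) and of Sel1l (r = 0.78, permutation adjusted p = 0.0394; rho = 0.84, adjusted p = 0.0341; n = 10). Both lost the call without the 2 mice farthest from the median of Hspa5 (r = 0.63 and 0.81, permutation adjusted p = 0.424 and 0.138) and with library size (r = 0.77 and 0.70, adjusted p = 0.0865 for both). The value for Hsp90b1 fell without those mice, while that for Sel1l did not. The other 8 of 10 relations tested, Hspa5 with Sdf2l1, Xbp1 and Derl3 in WT and with all 5 genes in KO, did not pass (permutation adjusted p 0.0513 to 0.844). Whether the relations differ between genotypes was not tested.

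Ratios of related genes within a library do not depend on how libraries are scaled, and 6 such ratios of RPKM (CPM per kilobase of gene length) were tested, each by a two-sided permutation test with Benjamini-Hochberg adjustment over the 6. Derl3 to Derl2 was 0.00707, 0.0237 and 0.0764 (lowest, median and highest) in KO and 0.0590, 0.152 and 0.435 in WT. The KO ratio was lower by a log2 difference of -2.86 (permutation adjusted p = 8e-05). Ero1lb to Ero1l was 1.25, 1.65 and 2.97 in KO and 2.44, 3.95 and 5.55 in WT, a log2 difference of -1.24 (permutation adjusted p = 8e-05). Each of these 2 pairs overlapped in range between the genotypes. Calr to Canx was 2.78, 3.10 and 3.78 in KO and 4.01, 4.70 and 6.30 in WT, with no overlap and a log2 difference of -0.63 (permutation adjusted p = 8e-05).

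Xbp1 to Atf6 was 7.07, 9.48 and 11.1 in KO and 9.79, 15.2 and 32.5 in WT, a log2 difference of -0.84 (permutation adjusted p = 9e-05). Hspa5 rose relative to Hyou1 by 0.36 (permutation adjusted p = 0.0066) and Edem1 relative to Edem2 by 0.16 (permutation adjusted p = 0.0412), both on the log2 scale with overlapping ranges. The call for Edem1 to Edem2 was lost in 10 of 20 omissions of a single mouse: KO_372, KO_391, KO_402, KO_404, KO_434, WT_406, WT_407, WT_408, WT_409 and WT_427 (log2 difference 0.14 to 0.16, adjusted p up to 0.0775). The other 5 ratios kept their calls in all 20 omissions. Under any scaling, then, Derl3, Ero1lb, Calr and Xbp1 were lower in KO relative to their partners.

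**Figure D4:**
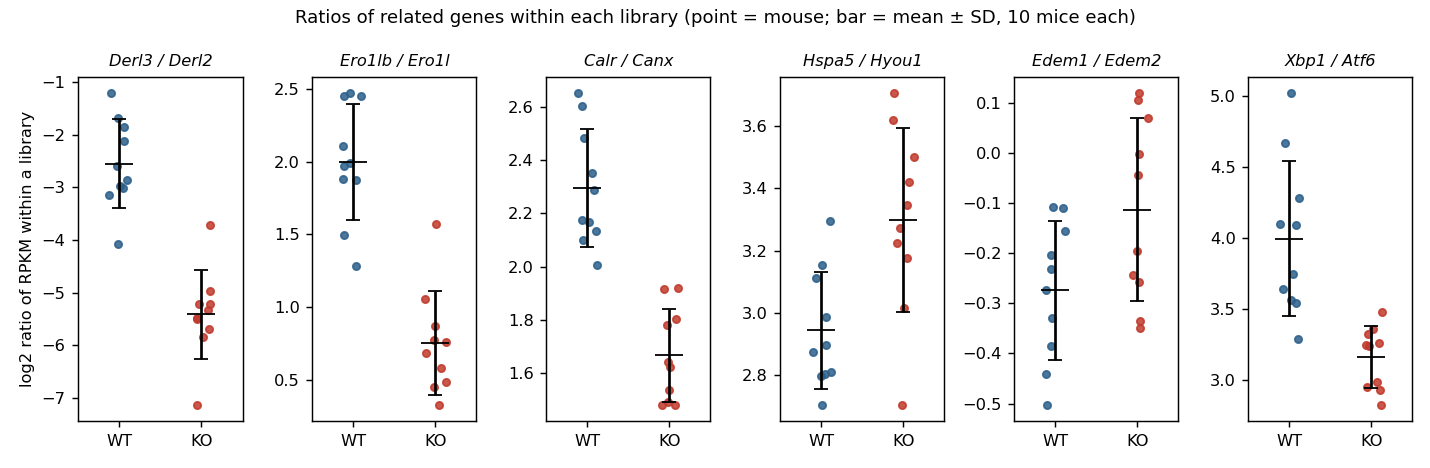
Log2 ratio of the RPKM of 2 related genes within each library (y axis, a separate scale per panel) for the 6 pairs tested; each point is a mouse, and bars are the mean ± SD of 10 mice. The KO points lie lower for Derl3 to Derl2, Ero1lb to Ero1l, Calr to Canx and Xbp1 to Atf6, and Calr to Canx is the 1 pair of these with no overlap.

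Per length of transcript the most abundant member changed identity. In WT liver Calr stood highest at 317 ± 60.3 RPKM, then Hsp90b1 at 295 ± 63.2, Herpud1 at 238 ± 84.4, P4hb at 233 ± 32.6 and Hspa5 at 217 ± 42.9 (SD, n = 10 each). Neighbours in that order lay within 1 SD of each other. In KO liver P4hb stood highest at 241 ± 21.2 RPKM. Calr followed at 184 ± 28.0, Hsp90b1 at 179 ± 18.9, Hspa5 at 174 ± 15.7, Pdia3 at 126 ± 12.8 and Herpud1 at 110 ± 31.1 RPKM. P4hb was the highest of the 40 in 10 of 10 KO mice and in 0 of 10 WT mice, where Calr led in 6, Hsp90b1 in 2 and Herpud1 in 2. At the other end Derl3 fell from 6.14 ± 3.85 to 0.653 ± 0.370 RPKM and became the lowest of the 40, a place that Eif2ak3 held in WT at 2.73 ± 0.644 RPKM. Vcp moved from rank 18 to rank 9 and Sdf2l1 from rank 21 to rank 32. These ranks are of the mean TMM-scaled RPKM of each genotype; which member is highest within a mouse does not depend on the scaling.

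**Figure D5:**
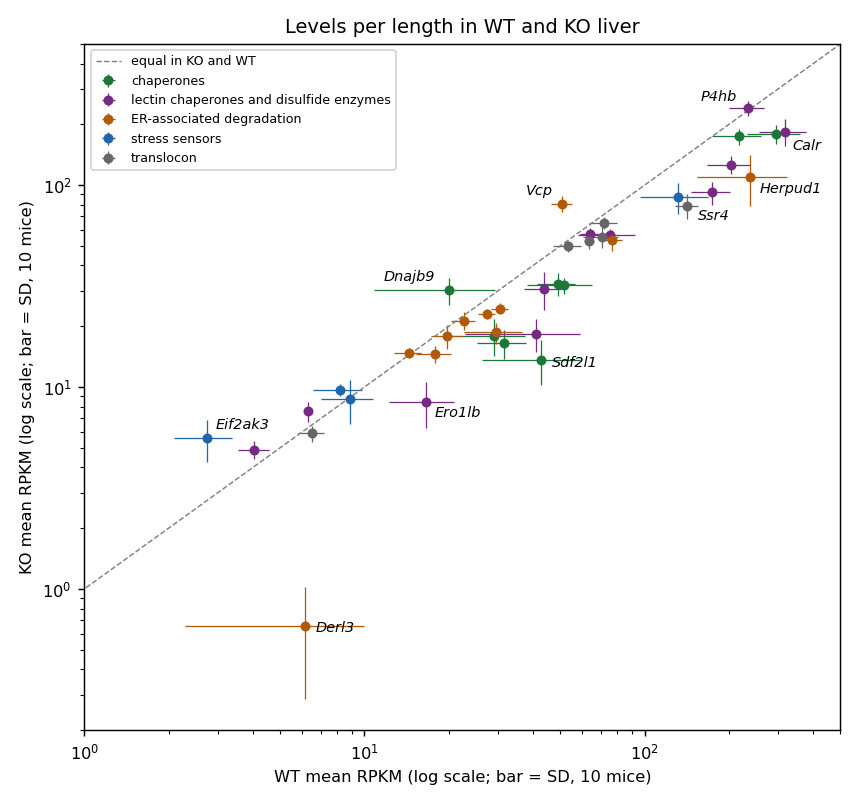
Mean RPKM in WT (x axis, log scale) and KO (y axis, log scale) for the 40 genes, coloured by role, with bars of 1 SD over 10 mice and a dashed line where both are equal. P4hb lies on the line near the top, Calr and Herpud1 below it, Vcp and Eif2ak3 above it, and Derl3 far below it at 0.653 RPKM in KO.

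The other genes of the pathway were taken from 6 lists of 124 genes, of which 120 were tested. Of these, 53 were lower and 31 higher, against 31% and 28.2% of all tested genes, with a median log2 fold change of -0.10. With library size 2 were lower and 90 higher, against 6.71% and 68.4% of all tested genes. The shares called higher were close to those of all genes under both scalings. Of 24 other folding enzymes 16 were lower and 4 higher (2 lower and 12 higher with library size). Ppib, the proline isomerase cyclophilin B of the lumen, went from 147 ± 14.0 CPM in WT to 65.4 ± 9.12 CPM in KO (SD, n = 10 each). Its log2 fold change was -1.17 (edgeR adjusted p = 7.52e-11), and -0.69 with library size. Erp44, a thioredoxin-like retention protein, was lower by -0.49 (-0.01 with library size, not called), and Gpx7, a peroxidase that feeds disulfide formation, was higher by 1.42. Of 18 genes of targeting, translocation and the signal peptidase 10 were lower and 4 higher (0 lower and 13 higher with library size). Among them were Hm13 (signal peptide peptidase) at -0.49 (-0.02 with library size, not called) and Sec62 at -0.36 (0.11 and called higher with library size). Srprb, a subunit of the signal recognition particle receptor, was at 0.51. Of 17 N-glycosylation genes 8 were lower and 3 higher (0 lower and 11 higher with library size). Mlec, the lectin malectin, rose from 99.1 ± 15.4 CPM in WT to 195 ± 15.1 CPM in KO (SD, n = 10 each), a log2 fold change of 0.98 (edgeR adjusted p = 9.2e-10). Magt1 and Krtcap2, oligosaccharyltransferase subunits, were lower at -0.57 and -0.50, and at -0.10 and -0.02 with library size, neither called.

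Of 26 other degradation genes 6 were higher, 6 lower and 14 not called, with a median of 0.04. With library size 23 were higher and 0 lower. The shares of all tested genes, for this list and the 2 below, were 28.2% higher and 31% lower with TMM. With library size they were 68.4% and 6.71%. Nploc4, the p97 cofactor NPL4, rose from 76.0 ± 8.68 CPM in WT to 143 ± 11.2 CPM in KO (SD, n = 10 each; 0.91 on the log2 scale, edgeR adjusted p = 2.56e-10). Ubxn4, which tethers p97 to the ER membrane, rose from 96.4 ± 9.69 CPM in WT to 181 ± 21.4 CPM in KO (SD, n = 10 each; 0.90 on the log2 scale, edgeR adjusted p = 1.42e-09). Ufd1, the partner of NPL4, was named after its values were seen, and rose from 36.4 ± 2.57 to 53.6 ± 5.40 CPM (log2 fold change 0.56, edgeR adjusted p = 7.24e-08). For all 3 every KO mouse lay above every WT mouse. Other genes whose products bind or work with p97 were mixed with TMM. Svip was higher by 0.39 (edgeR adjusted p = 2.8e-04; 0.85 with library size), while Faf2 at 0.06, Ubxn8 at 0.105 and Yod1 at -0.04 were not called. With library size Faf2 was higher at 0.53 and Ubxn8 at 0.57, and Yod1 was at 0.43, not called. Svip, Faf2, Ubxn8 and Yod1 were also named after their values were seen. Rnf5, a membrane ubiquitin ligase, was lower by -0.59 (-0.12 with library size, not called). Of 17 other unfolded protein response genes 8 were higher and 5 lower (15 higher and 0 lower with library size). Trib3 and Ppp1r15a, targets of the PERK branch, were higher by 1.04 and 0.78. Chac1, a target of the same branch named after its values were seen, was lower at -0.95 (edgeR adjusted p = 0.00764), and at -0.47 with library size, not called (adjusted p = 0.13). Selenok, a selenoprotein of the ER membrane, was lower at -0.47 and was at 0.010 with library size, not called. Of 18 genes of transport from the ER to the Golgi 6 were higher and 8 lower (16 higher and 0 lower with library size). Sec24b, a coat subunit, was at 0.51 and the cargo receptor genes Lman2 and Mcfd2 were at -0.46 and -0.29. With library size Lman2 was at 0.0092, not called, and Mcfd2 was higher at 0.19.

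The cargo of this machinery was lower too. Its list shares genes with the hepatocyte markers above, Alb, Apoa1 and Ahsg among them, so the falls of both are not separate results. Of 35 genes for secreted plasma proteins 32 were lower and 3 not called, with a median of -0.74, against 31% of all tested genes lower. With library size 22 were lower and 3 higher, against 6.71% and 68.4%. They included Ahsg, the plasma protein fetuin-A, at -1.13, and Serpina1b and Serpina1d at -1.22 and -1.54, near-identical gene copies whose fragments the counting may have divided among them. They took 17.1% ± 1.14 of the assigned fragments of KO mice and 21.4% ± 2.42 of those of WT mice (SD, n = 10 each). The 40 machinery genes took 0.643% ± 0.0425 in KO and 0.629% ± 0.0648 in WT. Per 1000 cargo fragments there were 37.7 ± 2.80 machinery fragments in KO (33.8 to 42.7) and 29.8 ± 5.11 in WT (23.5 to 39.3), with overlapping ranges. This ratio does not depend on the scaling, and it was described without a test. Plasma cells also hold much of this machinery. Of their 8 marker genes 5 were tested and 1, Jchain, was lower, against 31% of all tested genes. With library size 0 were lower, against 6.71%. The summed levels of the 8 marker genes were only 2.32 to 6.52 CPM in KO and 3.04 to 8.52 CPM in WT.

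In the authors' deposited table of KO against WT, all 40 genes were present, and at a false discovery rate under 0.05 it gave 19 as lower and 3, Eif2ak3, Vcp and Dnajb9, as higher. Of the 12820 genes in the authors' deposited table, 18.9% were lower and 22.1% higher. In the authors' deposited table of gene ontology terms, the response to ER stress (207 annotated genes) had a false discovery rate of 0.636, protein folding (134 genes) 0.773 and the ER lumen (51 genes) 0.189. The ER unfolded protein response (56 genes) was at 0.937, and the ER-associated degradation pathway (90 genes) did not pass 0.05 either.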

How the data were processed

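The members and lists were chosen with earlier results of these data known. The authors deposited raw counts of fragments per gene, and a gene with no fragment in any mouse has no entry. HISAT2 2.0.5 and DESeq2 stand in the submitters' processing notes, but the names of the deposited files point to Rsubread, the RefSeq annotation of mm10 and the ROTS test. Multi-mapping fragments were not set aside, per the deposited fragment statistics, and whether counting used strand is not stated in the labels or file headers. Further deposited values are a normalised signal (CPM over the TMM-scaled library), RPKM values, and a table with log2 fold changes, p-values and false discovery rates per the file headers.

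Each library carries its own number, taken here as 1 mouse. edgeR 4.0.16 (R 4.3.3) was run on counts of the 13670 of 20914 genes that passed filterByExpr (minimum count 10, minimum total count 15), with TMM factors, robust quasi-likelihood F tests and Benjamini-Hochberg adjustment at 0.05. CPM is TMM-scaled, with a prior count of 2 for log2 CPM. Each SE belongs to a log2 fold change. The scripts were tested on simulated data. Ratios and relations used permutation tests with 100000 resamples (scipy 1.17.1). Alternatives were other scalings, filters, DESeq2 1.42.0, limma 3.58.1 (voom, and trend on log2 RPKM plus 0.1 or 1) and each mouse left out. Full values are given for the up to 4 members of each role with the smallest adjusted p and for Hspa5, Xbp1 and Ddit3. Up to 3 genes of each wider list are named, besides those named after their values were seen or as shared with a marker list. Of the other marker lists, 4 of 7 stellate cell, 2 of 6 sinusoidal and 2 of 5 cholangiocyte genes were higher with TMM, against 28.2% of all tested genes. In these lists 1 cholangiocyte, 1 of 1 T and NK cell and 1 of 2 pancreatic acinar genes were lower, against 31%. The 3 neutrophil genes tested were not called. With library size 6 of 7 stellate cell, 6 of 6 sinusoidal, 3 of 5 cholangiocyte and 1 of 3 neutrophil genes were higher, against 68.4%. The T and NK cell gene and 1 acinar gene were then lower, against 6.71%.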

Additional observations from a re-analysis of the deposited data

Results flagged for a closer look

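In 7 of 80 gene and genotype groups 1 mouse stood apart from the other 9: its gap to the nearest of them, as a share of the group's range, passed Dixon's 95% critical value. Chance alone gives this in about 1 group in 20, which is 4 of 80. The values are log2 CPM. KO_416 accounted for 4 of the 7: it was lowest for Derl2 at 6.25 (the other KO mice 6.42 to 6.61) and for Vcp at 7.73 (8.00 to 8.26), and highest for Sec61b at 5.30 (4.79 to 5.05) and for Ssr4 at 6.45 (5.75 to 6.04). Each of its Vcp and Ssr4 values lay on the WT side of the KO mice without reaching the WT range. KO_391 was highest for Ero1lb at 5.88 (4.66 to 5.28). WT_427 was highest for Dnajb9 at 6.38 (4.73 to 5.41), and without it the log2 fold change of Dnajb9 was 0.80. WT_406 was lowest for Selenos at 4.09 (4.46 to 4.78), and without it Selenos was called lower at -0.20.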

How the results depend on the processing

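No paired analysis was possible because KO and WT mice have no shared number, litter or batch in the labels. Scaling by library size alone moved the members called from 6 to 19 higher and from 26 to 11 lower, and the wider ER lists from 31 to 90 higher and from 53 to 2 lower. It reversed the sign of 14 members: Hspa5 0.16, Canx 0.32, Pdia4 0.064, Derl2 0.15, Sel1l 0.18, Edem1 0.37, Edem2 0.22, Selenos 0.32, Ern1 0.42, Sec61a1 0.37, Sec61b 0.13, Ssr1 0.33, Ssr2 0.21 and Ssr3 0.34. All 40 members kept direction and call under DESeq2, DESeq2 size factors, upper-quartile factors, no filter, a filter of CPM 1 in 10 mice, and log2 RPKM with pseudocounts of 0.1 and 1. With voom 37 did, and Selenos (-0.20), Ssr1 (-0.18) and Ssr3 (-0.18) passed the test. Leaving out each mouse gave 6 higher and 25 to 28 lower, and 782 of 800 member results kept direction and call. It reversed P4hb (range -0.0030, without WT_406, to 0.092) and, in 8 omissions, Ern1 (range -0.100 to 0.032), neither called. The ratios then ranged from -3.05 to -2.67 for Derl3 to Derl2, -1.33 to -1.19 for Ero1lb to Ero1l, -0.66 to -0.59 for Calr to Canx, -0.91 to -0.72 for Xbp1 to Atf6, 0.31 to 0.42 for Hspa5 to Hyou1 and 0.14 to 0.19 for Edem1 to Edem2. Without the 2 mice farthest from the median of Hspa5, r turned to 0.40 for Sdf2l1 in KO and to -0.54 for Xbp1 in WT, and was 0.63 for Hsp90b1 and 0.81 for Sel1l in WT; with library size these last were 0.77 and 0.70. Apart from the scaling and the fewer mice, the cause was not tested. Depth limits Derl3 in KO most, at 0.230 to 2.14 CPM.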
